A study of Mus musculus with 6 samples.

Results

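The nuclear-encoded subunits of the mitochondrial respiratory chain and ATP synthase were examined in cultured aortic smooth muscle cells with and without Smyd2. Genes were taken by symbol, as all that begin with Nduf followed by a, b, c, s or v, with Uqcr, with Cox4 to Cox8 or with Atp5, together with Sdha, Sdhb, Sdhc and Sdhd. The assembly factors whose symbols begin with Ndufaf were left out. This gave 81 of the 18112 genes listed, of which 38 belong to complex I, 4 to complex II, 8 to complex III, 15 to complex IV and 16 to complex V. Cyc1 does not meet the symbol rule and is described with the electron carriers. Cox8b and Cox8c would meet it by name, but neither symbol was among the genes listed, so they were not analysed here.

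The study asked what the lysine methyltransferase SMYD2 does in vascular smooth muscle cells (VSMCs). RNA of primary VSMCs from the aortas of young adult C57BL/6 mice was sequenced in 6 libraries. The 3 control libraries came from Smyd2 fl/fl littermates, whose Smyd2 alleles are floxed but which carry no Cre. The 3 knockout libraries came from Smyd2 fl/fl Tagln-Cre mice, denoted Smyd2 SMC-/-. Cre is driven there by the Tagln (SM22α) promoter, which marks smooth muscle and is known to be active in some other cells, cardiomyocytes among them. The sample labels give cells at passage 6 in DMEM with 10% FBS, whereas the study's methods give an earlier passage and overnight starvation, so the serum state at harvest is uncertain. The study speaks in general of independent experiments, but whether the 3 libraries of a genotype come from separate animals or cultures is not given for these libraries in the sources used here, and the p-values measure the spread between these libraries, which may be technical.

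Markers of the labelled cell type were checked first. The 9 smooth muscle markers summed to 1119, 950 and 940 FPKM in replicates 1, 2 and 3 of Smyd2 fl/fl and to 307, 553 and 502 FPKM in Smyd2 SMC-/- replicates 1, 2 and 3. FPKM scales the fragments of a gene to the length of its transcript and to the total that was mapped in its library. Acta2 was the most abundant of them with a mean of 476 FPKM, and the remaining 8 summed to 357, 267 and 257 FPKM against 106, 285 and 240 FPKM. These were low in knockout replicate 1, while in replicates 2 and 3 the groups overlapped and the lower sum in the knockout was that of Acta2, at 682 and 683 against 268 and 262 FPKM. By contrast Myh11, a marker of mature smooth muscle, had a mean of 0.078 FPKM and was close to absent. Among markers of other cells, the 7 endothelial markers with a value summed to between 1.42 and 5.41 FPKM in a library, with Kdr the highest, and the 8 macrophage markers to between 4.98 and 8.99 FPKM, with Cd68 the highest. The 7 markers of adventitial fibroblasts, led by Dcn, summed to 236, 845 and 715 FPKM in Smyd2 fl/fl and to 142, 708 and 697 FPKM in Smyd2 SMC-/-, and these markers did not move together. Dcn, at 13.9, 311 and 257 FPKM against 25.6, 383 and 350 FPKM, was low in replicate 1 of both genotypes. Dpt, at 144, 90.3 and 65.5 FPKM against 3.31, 1.15 and 0.63 FPKM, was highest in replicate 1 and lower in each knockout library, whereas Col14a1, at 6.49, 24.7 and 26.8 FPKM against 64.8, 160 and 197 FPKM, was higher in each. The 5 cardiomyocyte markers with a value, led by Tnnt2, summed to between 3.94 and 29.1 FPKM. Adipocyte markers summed to 122 FPKM in Smyd2 SMC-/- replicate 1, nearly all of it Fabp4, and to between 7.50 and 13.0 FPKM in the other libraries. No marker with a value was at 0 in all 6 libraries. In bulk RNA, fewer cells of a type and less RNA per cell cannot be told apart, and the part of these markers in the results on the respiratory subunits was not tested.

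Replicate 1 stood apart from replicates 2 and 3 in both genotypes. On the scale of log2(FPKM + 1), the mean of the replicate 1 libraries minus the mean of the others had a median of −0.14 over the 77 subunits tested and of 0.09 over all tested genes, and 48 of the 77 subunits were below 0. The subunits farthest below were Cox6b2 at −1.54, Ndufa4l2 at −1.09 and Ndufa7 at −1.05. The respiratory subunits have short transcripts, with a median of 758 bases against 2926 bases for the other tested genes, and across the 77 subunits the log2 length and this difference were correlated by r = 0.28, against 0.047 across 11573 other genes. These points share the 6 libraries and are not independent. Results are therefore also given with the replicate number as a block, which compares same-numbered libraries, and in replicates 2 and 3 alone.

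Each respiratory complex is built from several proteins. Complex I takes electrons from NADH and complex II from succinate, both pass them through coenzyme Q to complex III, and cytochrome c carries them to complex IV, where oxygen is reduced. Complexes I, III and IV pump protons, and complex V, the ATP synthase, uses the gradient to make ATP. All of complex II and most subunits of the others are encoded in the nucleus, while a small core of complexes I, III, IV and V is encoded in mitochondrial DNA. In smooth muscle this pathway and glycolysis both supply ATP.

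Smyd2, the targeted gene (NCBI Gene number 226830), was at 7.87, 3.10 and 3.0 FPKM in the controls and at 1.67, 0.40 and 0.80 FPKM in the knockout replicates 1, 2 and 3. All 3 knockout libraries lay below all 3 control libraries, which fits the labels. The log2 fold change was −1.48 (standard error, SE, 0.389, adjusted p = 0.105), and with the replicate block the adjusted p was 0.0189 (range 0.00126 to 0.305 over 18 alternative fits).

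The respiratory subunits together made up 1.52%, 1.74% and 1.58% of all FPKM in the Smyd2 fl/fl libraries and 1.59%, 1.55% and 1.48% in the Smyd2 SMC-/- libraries. Genes of complex I summed to 2024, 2571 and 2167 FPKM in the controls and to 2091, 1990 and 1896 FPKM in the knockout, and the groups overlapped. Complex II genes summed to 216, 237 and 208 FPKM and to 200, 189 and 202 FPKM, with each knockout library below each control library. The 8 complex III genes came to 511, 661 and 543 FPKM against 460, 527 and 450 FPKM. Here the highest knockout library, replicate 2, exceeded the lowest control library, replicate 1. For complex IV the sums were 1732, 2199 and 1883 FPKM in the controls and 1863, 1864 and 1663 FPKM in the knockout, again with overlap. Complex V genes summed to 1816, 2167 and 1862 FPKM in the controls and to 1604, 1645 and 1556 FPKM in the knockout, a separation without overlap. The summed FPKM of all genes was lower in each knockout library than in each control library. As a share of it, complex II was at 0.0521%, 0.0525% and 0.0492% in the controls and 0.0511%, 0.0472% and 0.0521% in the knockout, which overlap. Complex V was at 0.439%, 0.480% and 0.441% against 0.410%, 0.411% and 0.401%, again without overlap. This separation rests on Atp5b and Atp5d, both on chromosome 10. The other 14 genes of complex V summed to 1071, 1478 and 1246 FPKM in the controls and 1121, 1182 and 1120 FPKM in the knockout, which overlap, as do their shares. Smyd2 fl/fl replicate 2 had the highest sum in every complex.

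**Figure D1:**
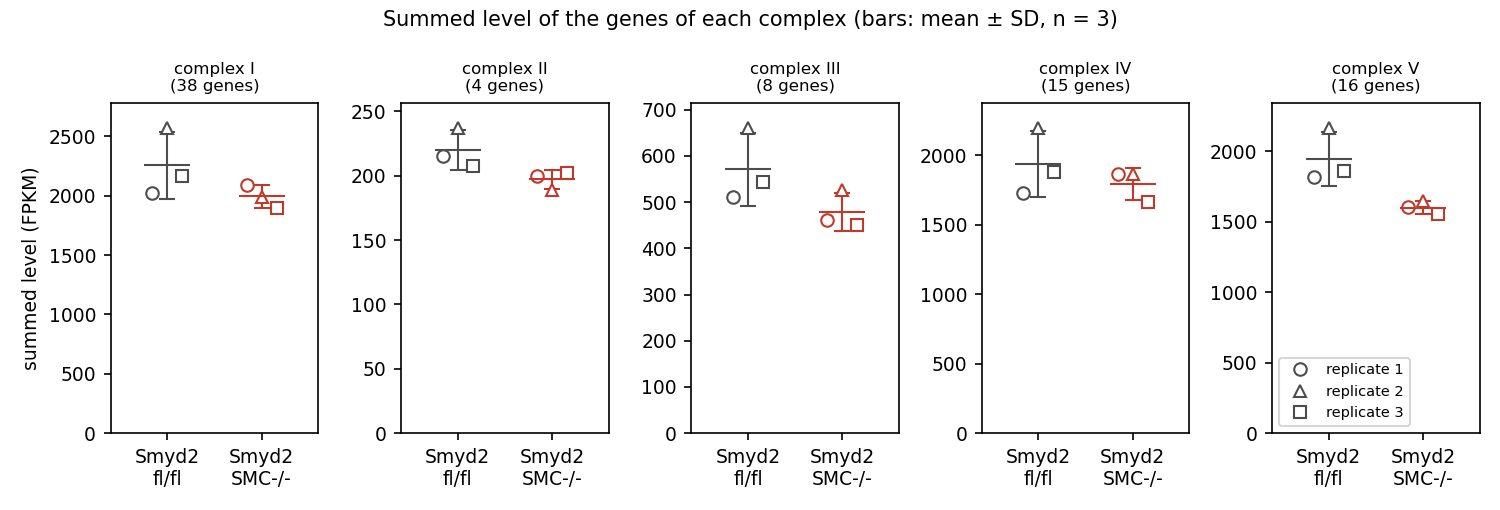
Summed FPKM of the genes of each complex in each library, with the mean and SD (n = 3) as bars, controls in grey and Smyd2 SMC-/- in red. The sums of complexes II and V are lower in each knockout library than in each control library, and those of complexes I, III and IV overlap. As shares of all FPKM those of complex II overlap too.

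Of the 81 genes, 77 had a mean of at least 0.5 FPKM over the 6 libraries and were tested among 12565 genes. Cox4i2, Cox6a2, Cox7a1 and Uqcrc1 were under this level, with values between 0 and 1.26 FPKM. The median log2 fold change, as Smyd2 SMC-/- minus Smyd2 fl/fl, was −0.12 over the 77 subunits, 54 of which were below 0, and −0.02 over all tested genes. This background was not matched for level. With a minimum mean of 5 FPKM the medians were −0.12 over the subunits and −0.04 over all genes. Without Smyd2 fl/fl replicate 2 the median of the subunits was −0.022, and with any other library left out it was between −0.17 and −0.08. Rescaling each library to TPM, which sets all sums equal, moved the median of all tested genes by 0.11. Relative to the median of all genes, the subunits were at −0.10 with FPKM as deposited, −0.09 after rescaling to TPM and −0.04 after quantile normalization, but the TPM value not taken relative to all genes flipped to 0.0050. In the pairs of replicates 1, 2 and 3 the median of the subunits was 0.01, −0.29 and −0.12, so that replicate 1 did not share the direction of the others.

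With limma, 0 subunits were lower and 0 higher in Smyd2 SMC-/- at an adjusted p under 0.05, against 1.21% of all tested genes lower and 1.23% higher. At p under 0.05 before adjustment there were 12 subunits lower and 1 higher, or 15.6% and 1.30%, against 11.2% and 9.16% of all tested genes. With the replicate block 7 subunits were lower and 0 higher, where 5.72% of all tested genes were lower and 4.72% higher, so that 7 of 77 is above the background in the lower direction by a few genes. These 7 were Ndufa12, Ndufs7, Ndufv1, Ndufs8 and Ndufb8 of complex I and Atp5d and Atp5b of complex V. In replicates 2 and 3 alone 18 subunits were lower and 1 higher, against a background of 17.2% lower and 11.9% higher. After rescaling to TPM with the replicate block, an alternative chosen after the data were seen, 5 were lower and 1, Ndufs1, was higher, against 3.78% and 8.07% of all genes. In that limma fit Atp5b (adjusted p = 0.0614) and Ndufb8 (adjusted p = 0.0706) no longer passed, and Ndufs8 was close to the limit (adjusted p = 0.0499). The knockout libraries all lay below the control libraries for 16 subunits and all above them for 2, Ndufs1 and Cox6a1, where 15.0% and 13.1% of all tested genes did so.

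**Figure D2:**
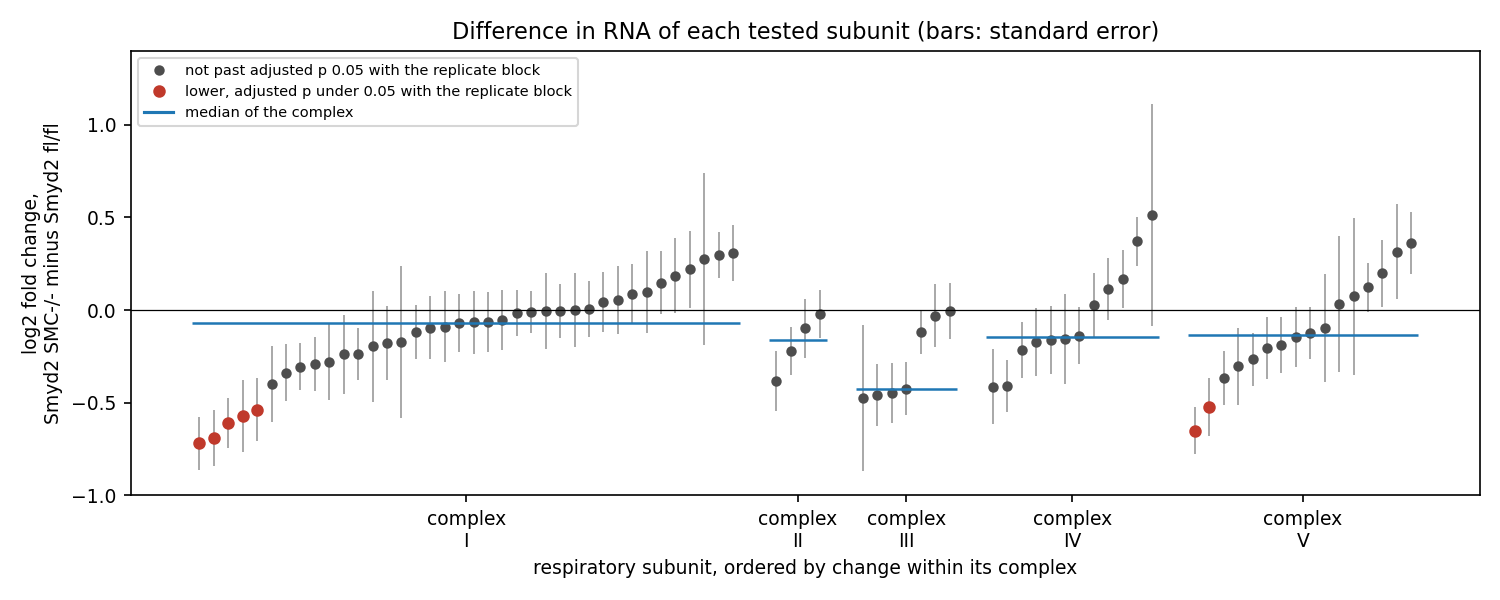
Log2 fold change (Smyd2 SMC-/- minus Smyd2 fl/fl, log2(FPKM + 1) scale) of each of the 77 tested subunits by complex, with standard errors as bars and the median of each complex as a blue line. The 7 subunits lower with the replicate block, in red, are 5 of complex I and 2 of complex V. The medians of all complexes are below 0 with all libraries. That of complex I is above 0 after rescaling to TPM, and at 0.05 without Smyd2 fl/fl replicate 2, where that of complex V is −0.03. Without Smyd2 fl/fl replicate 1 the medians of complexes I and V are −0.15 and −0.25. That of complex IV is −0.0022 without Smyd2 SMC-/- replicate 3.

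Complex I has 7 nuclear-encoded core subunits, which carry its redox centres, and the remaining 31 members of the list include its accessory subunits. Of the 7 core subunits 4 were below 0, with a median log2 fold change of −0.34, or −0.22 after rescaling to TPM, and 3 were lower with the replicate block, against 5.72% of all tested genes. All 3 lie on chromosomes 10 and 19, where 26.1% of the other genes were lower, and the median was −0.16 after removal of chromosome medians, described below. The parts of complexes I and V were set after the values were seen. Ndufs7 (NCBI Gene number 75406), a core subunit that holds an iron-sulfur cluster close to the site of quinone reduction, was at 78.4, 70.6 and 59.1 FPKM in the controls and at 47.6, 39.5 and 40.4 FPKM in the knockout replicates 1, 2 and 3. The groups did not overlap, and the highest knockout library was replicate 1, as in the controls. Its log2 fold change was −0.69 (SE 0.151, adjusted p = 0.0703, with the replicate block 0.0279), and over 19 alternative fits the adjusted p ranged from 0.00502 to 0.277.

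Ndufv1 (NCBI Gene number 17995), which binds NADH and its flavin, was at 47.9, 48.2 and 42.6 FPKM in the controls and at 34.3, 27.8 and 28.1 FPKM in the knockout. Each knockout library was below each control library, with replicate 1 nearest to the controls. The log2 fold change was −0.61 (SE 0.134, adjusted p = 0.0704, with the replicate block 0.0351, range over the alternatives 0.00316 to 0.451). For Ndufs8 (NCBI Gene number 225887), another iron-sulfur subunit, the values were 36.9, 31.6 and 28.3 FPKM in the controls and 26.8, 21.1 and 17.0 FPKM in the knockout. The groups again did not overlap, although Smyd2 SMC-/- replicate 1 came close to Smyd2 fl/fl replicate 3. Its log2 fold change was −0.57 (SE 0.194, adjusted p = 0.175, with the replicate block 0.0372, range 0.00992 to 0.714). Ndufs1, the core subunit with the most iron-sulfur clusters, went the other way, with 23.2, 20.6 and 20.8 FPKM in the controls and 29.3, 25.2 and 25.5 FPKM in the knockout. Its knockout libraries lay above all controls, with a log2 fold change of 0.30 that did not pass the test (adjusted p = 0.247, with the replicate block 0.0972). It passed in 1 of 19 alternatives, TPM with the replicate block (adjusted p = 0.0475, range 0.0475 to 0.489), and is named after its values were seen.

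The other 31 complex I members had mean levels from 1.01 to 199 FPKM and a median log2 fold change of −0.07 (0.06 after rescaling to TPM), with 22 below 0. The highest was Ndufa4 at 160, 257 and 221 FPKM in the controls and 205, 187 and 164 FPKM in the knockout, a gene now assigned to complex IV by its protein. These groups overlapped, and the pairs differed in direction. The log2 fold change was −0.18 (adjusted p = 0.691), while in replicates 2 and 3 alone it was −0.45 (adjusted p = 0.0385, range 0.0385 to 0.965). Ndufa12 (NCBI Gene number 66414), an accessory subunit, was at 203, 179 and 163 FPKM in the controls and at 125, 105 and 100 FPKM in the knockout, with no overlap. The log2 fold change was −0.72 (SE 0.145, adjusted p = 0.0593, with the replicate block 0.0225, range over the alternatives 0.00309 to 0.239). Ndufb8 (NCBI Gene number 67264), an accessory subunit of the membrane arm, was at 70.9, 92.5 and 73.2 FPKM in the controls and at 44.7, 60.1 and 57.4 FPKM in the knockout. Its knockout libraries were all below the controls, and the log2 fold change was −0.54 (SE 0.171, adjusted p = 0.153, with the replicate block 0.0445, range 0.0243 to 0.856). At the other end, Ndufb6 was at 18.4, 24.8 and 22 FPKM in the controls and 29.5, 27.1 and 24.4 FPKM in the knockout. The groups overlapped by a single library, Smyd2 fl/fl replicate 2, and the log2 fold change of 0.31 did not pass the test in any fit (adjusted p = 0.316).

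The promoters of Ndufa12 and Ndufs8 are shown because both genes were lower with the replicate block and carry different letters upstream. Each is the 150 bases before the start of transcription, from RefSeq on GRCm38.p6, written 5′ to 3′ along the gene. For Ndufa12 this is chr10:94198885-94199034 on the + strand, with the letters of the GC box in capitals (GGGCGG or its reverse complement), and for Ndufs8 chr19:3912775-3912924 on the - strand, with the letters of the CCAAT box in capitals.
Ndufa12: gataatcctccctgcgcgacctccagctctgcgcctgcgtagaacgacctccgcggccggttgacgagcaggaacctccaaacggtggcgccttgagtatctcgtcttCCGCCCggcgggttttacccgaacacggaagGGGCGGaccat
Ndufs8: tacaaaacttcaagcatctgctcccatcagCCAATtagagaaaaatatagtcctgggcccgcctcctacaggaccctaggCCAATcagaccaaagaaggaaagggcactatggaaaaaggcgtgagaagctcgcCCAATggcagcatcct

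Letters of 5 motifs, chosen after the data were seen, were searched on both strands of windows of 300 bases, 250 before and 50 after each start, which 67 of the 81 members had. The letters known for NRF1 (CGCATGCG) were in 9 members, or 13.4%, against 2.07% of all genes with a window and 4.48% of tested genes with a window. Those of ETS factors (CCGGAAG) were in 23.9% of members, 9.93% of all genes and 20.9% of tested genes, and those of YY1 (AAGATGGCG) in 10.4%, 1.64% and 3.71%. The CCAAT box (CCAAT) was in 43.3% of members and 41.1% of all genes, and the GC box in 41.8% and 38.2%, against 69.9% of tested genes for the latter. Among the 7 subunits lower with the replicate block, NRF1 letters were in 0, ETS in 1, YY1 in 1, CCAAT in 2 and GC box in 3. A match is a description of these letters and not of binding.

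In complex II all 4 subunits were below 0 with FPKM as deposited, with a median log2 fold change of −0.16 (−0.04 after rescaling to TPM), and 0 were called with limma, with or without the replicate block. At p under 0.05 before adjustment without the block there were 0 of the 4. Sdhc, a membrane anchor, had the highest level, at 70.4, 84.8 and 78.9 FPKM in the controls and 82.0, 70.2 and 78.5 FPKM in the knockout, with overlapping groups. Sdhb, the iron-sulfur subunit, was at 36.6, 42.9 and 32.7 FPKM in the controls and at 24.0, 31.5 and 30.1 FPKM in the knockout. The groups did not overlap, but the log2 fold change of −0.38 did not pass the test in any fit (SE 0.162, adjusted p = 0.254).

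Complex III had a median of −0.43 over 7 tested subunits, all below 0. It was −0.04, −0.36 and −0.27 in the pairs of replicates 1, 2 and 3, −0.26 in replicates 2 and 3 alone, −0.10 without Smyd2 SMC-/- replicate 1 −0.30 after rescaling to TPM and −0.08 after removal of chromosome medians, which is described below. With all libraries this was the lowest median of the 5 complexes, but without Smyd2 SMC-/- replicate 1 it was the nearest to 0, and after removal that of complex II was lower, at −0.18. None of the 7 passed the test with limma, with or without the replicate block, whereas 3 were lower at p under 0.05 before adjustment without the block. Uqcrb was the most abundant, at 131, 181 and 153 FPKM in the controls and 158, 159 and 144 FPKM in the knockout, and the groups overlapped. Uqcrh, the acidic hinge protein, was at 68.3, 122 and 88.6 FPKM in the controls and at 35.7, 93.4 and 81.0 FPKM in the knockout, with replicate 1 low in both genotypes and overlap between the groups. The log2 fold change was −0.48 (SE 0.393, adjusted p = 0.566), and it was −0.06 without Smyd2 SMC-/- replicate 1, −0.26 without Smyd2 fl/fl replicate 2 and −0.74 without Smyd2 SMC-/- replicate 2. Uqcrfs1, the Rieske iron-sulfur protein, was named after its values were seen. It was at 40.9, 50 and 46.7 FPKM in the controls and at 40.8, 29.1 and 30.4 FPKM in the knockout. The knockout libraries were below the controls, replicate 1 only barely, and the log2 fold change was −0.46 (adjusted p = 0.201, with the replicate block 0.145, in replicates 2 and 3 alone 0.00240, range 0.00240 to 0.495).

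Complex IV subunits in this list surround a core encoded in mitochondrial DNA, and several come in paralogs that differ between tissues. The 12 tested had a median log2 fold change of −0.15 (−0.02 after rescaling to TPM), and limma called 0 with or without the replicate block, with 1 lower and 1 higher at p under 0.05 before adjustment without it. Cox8a was the most abundant, at 423, 444 and 385 FPKM in the controls and 349, 322 and 275 FPKM in the knockout. The groups did not overlap, and its log2 fold change was −0.41 (SE 0.139, adjusted p = 0.175, with the replicate block 0.0664, in replicates 2 and 3 alone 0.0379, range 0.0379 to 0.989). Cox6a1 lay higher in each knockout library, at 372, 380 and 322 FPKM against 248, 292 and 290 FPKM, and its log2 fold change of 0.37 did not pass the test in any fit (adjusted p = 0.193).

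Paralogs were compared as shares of their summed FPKM within a library, with two-sided exact permutation tests over the libraries, where 3 against 3 cannot give a p under 0.1. Cox7a2l was at 150, 250 and 192 FPKM in the controls and at 131, 150 and 155 FPKM in the knockout. With all libraries its log2 fold change was −0.41 (adjusted p = 0.312, with the replicate block 0.117, in replicates 2 and 3 alone 0.0320, range 0.0320 to 0.636), without Smyd2 fl/fl replicate 2 it was −0.23, and the groups overlapped by replicate 3 of the knockout against replicate 1 of the controls. As a share of Cox7a1, Cox7a2 and Cox7a2l it was 83.8%, 85.2% and 83.9% in the controls and 76.4%, 78.9% and 81.0% in the knockout. All knockout shares were below the control shares (exact p = 0.1), and the remainder was almost all Cox7a2. Cox7a2l lies on chromosome 17 and Cox7a2 on chromosome 9, whose other genes had median log2 fold changes of −0.15 and 0.12. Subtracting these medians, as described below, left Cox7a2l at −0.27 and Cox7a2 at −0.01, against −0.41 and 0.12 before. The part of these chromosome-wide differences in the shares was not tested.

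Cox4i2, the paralog induced by low oxygen in lung, was at 0.34, 0.77 and 0.79 FPKM in the controls and 0.03, 0.24 and 0.24 FPKM in the knockout. Its share beside Cox4i1 was between 0.225% and 0.456% in the controls and between 0.0217% and 0.153% in the knockout (exact p = 0.1), and so both groups used Cox4i1 almost alone. These Cox4i2 values stand for few fragments, as 1 fragment on a transcript of 758 bases is about 0.0644 to 0.0790 FPKM. The value of knockout replicate 1, 0.03 FPKM, is below that of 1 fragment. Cox6b2 was at 0.53, 2.63 and 2.32 FPKM in the controls and at 0.57, 4.40 and 5.29 FPKM in the knockout. Replicate 1 was low in both genotypes, and in replicates 2 and 3 the knockout libraries lay above the controls. Its log2 fold change was 0.51 (SE 0.599, adjusted p = 0.700, with the replicate block 0.173, in replicates 2 and 3 alone 0.00834, range 0.00667 to 0.963), from 0.12 without Smyd2 fl/fl replicate 1 to 1.14 without Smyd2 SMC-/- replicate 1, and its share beside Cox6b1 had an exact p of 0.3. Ndufa4l2, with 0.18, 1.04 and 1.01 FPKM against 0.07, 2.47 and 1.31 FPKM, gave a log2 fold change of 0.28 (adjusted p = 0.799), which turned to −0.11 without Smyd2 SMC-/- replicate 2. Cox6a2 and Cox7a1, the paralogs of heart and skeletal muscle, were at no more than 0.49 FPKM in any library.

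Complex V was examined by its parts, the catalytic head with its central stalk, the peripheral stalk that holds it in place, and the membrane part. Atp5s, counted in complex V by its symbol, was placed in none of these parts. It had a mean of 2.67 FPKM and a log2 fold change of 0.32 (limma adjusted p = 0.559). The 5 subunits of the head had a median log2 fold change of −0.12 (0.00 after rescaling to TPM) and 2 of them were lower with the replicate block, against 5.72% of all tested genes. Both lie on chromosome 10, where 23.2% of the other genes were lower. Atp5b (NCBI Gene number 11947), the catalytic beta subunit and the most abundant of all members, was at 533, 449 and 394 FPKM in the controls and 354, 304 and 294 FPKM in the knockout. The groups did not overlap, with replicate 1 the highest in both. Its log2 fold change was −0.52 (SE 0.158, adjusted p = 0.136, with the replicate block 0.0416, range over the alternatives 0.0188 to 0.680). Atp5d (NCBI Gene number 66043), the delta subunit of the central stalk, was at 212, 241 and 222 FPKM in the controls and at 129, 158 and 142 FPKM in the knockout, again without overlap. The log2 fold change was −0.65 (SE 0.129, adjusted p = 0.0589, with the replicate block 0.0263, range 0.00813 to 0.445). The 4 peripheral stalk subunits had a median of −0.24 (−0.11 after rescaling to TPM), and the 6 membrane subunits of −0.12 (0.0030 after rescaling to TPM, where the direction is lost), with 0 called in either by limma with the replicate block. In replicates 2 and 3 alone 1 of each was lower, Atp5o of the peripheral stalk and Atp5g2 of the membrane part. Atp5o was at 99.7, 132 and 118 FPKM in the controls and 81.4, 94.7 and 92.8 FPKM in the knockout, without overlap. Its log2 fold change was −0.37 (adjusted p = 0.226, in replicates 2 and 3 alone 0.0283, range 0.0283 to 0.701).

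In the membrane part, Atp5g1, Atp5g2 and Atp5g3 encode the same mature c subunit of the rotor. Atp5g2 gave 46.4%, 55.0% and 54.8% of their FPKM in the controls and 53.5%, 45.7% and 49.9% in the knockout, with overlap (exact p = 0.5). The mean difference was −2.38 percentage points over all libraries and −7.13 in replicates 2 and 3. The gene itself was at 163, 270 and 242 FPKM in the controls and 198, 169 and 169 FPKM in the knockout, opposite in replicate 1 to the others, with a log2 fold change of −0.30 (adjusted p = 0.483, in replicates 2 and 3 alone −0.60 and 0.00860, range 0.00860 to 0.789). The shares of Atp5g1 and Atp5g3 also overlapped, with exact p of 0.9 and 0.5. Atp5j2, subunit f, was at 66.3, 99.0 and 75.5 FPKM in the controls and 101, 107 and 97.7 FPKM in the knockout, a log2 fold change of 0.36 that did not pass the test in any fit (adjusted p = 0.291). Smyd2 fl/fl replicate 2 lay among the knockout libraries and the other controls below them.

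The promoter of Atp5b is shown as that of the most abundant member, and a promoter of Atp5j, a peripheral stalk subunit not past the test, because it holds the letters of NRF1, YY1 and ETS together. Both are the 150 bases before the start on GRCm38.p6 from RefSeq, Atp5b at chr10:128083157-128083306 on the + strand and Atp5j at chr16:84834977-84835126 on the - strand. Capitals mark CCAAT and GC boxes in Atp5b, and in Atp5j the letters of NRF1, YY1 and ETS in this order. RefSeq lists another start of Atp5j, at which the 150 bases before it, chr16:84835626-84835775, hold a GC box and none of these letters.
Atp5b: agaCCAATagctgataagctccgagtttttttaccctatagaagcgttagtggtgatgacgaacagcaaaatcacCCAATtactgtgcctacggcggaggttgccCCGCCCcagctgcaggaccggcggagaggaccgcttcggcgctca
Atp5j: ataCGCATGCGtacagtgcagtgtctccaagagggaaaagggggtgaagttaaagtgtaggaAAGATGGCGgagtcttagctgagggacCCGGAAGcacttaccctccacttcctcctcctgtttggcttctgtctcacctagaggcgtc

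**Figure D3:**
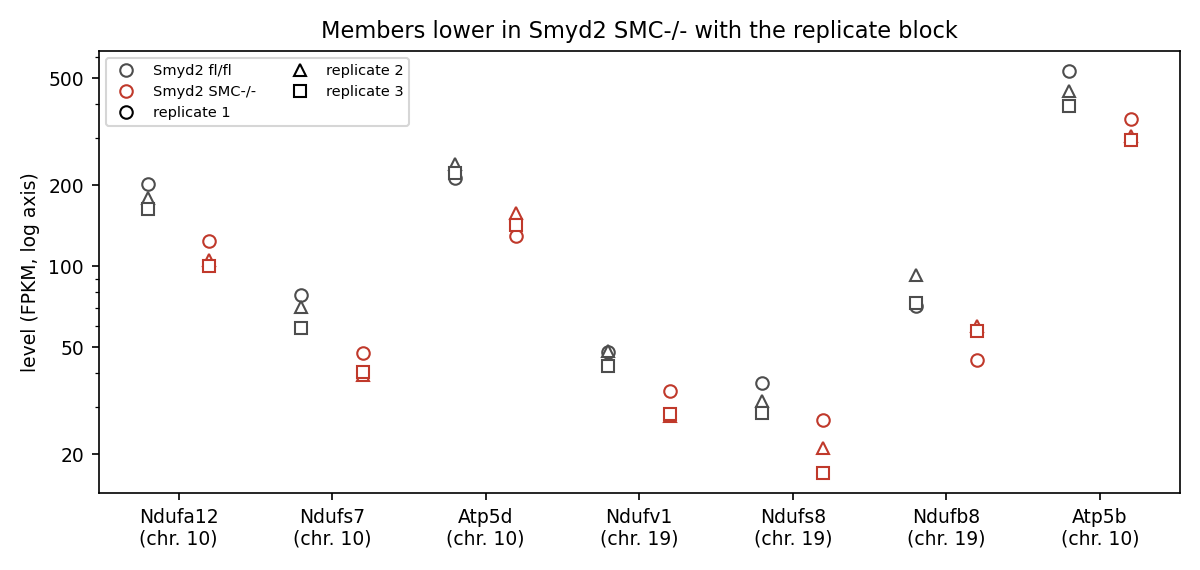
FPKM (log axis) of the 7 subunits lower with the replicate block in each library, controls in grey and Smyd2 SMC-/- in red, with symbols for the replicates. For each gene all 3 knockout libraries lie below all 3 control libraries, and the genes lie on chromosomes 10 and 19.

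The 7 subunits lower with the replicate block lie on 2 chromosomes, with Ndufa12, Ndufs7, Atp5d and Atp5b on chromosome 10 and Ndufv1, Ndufs8 and Ndufb8 on chromosome 19. These chromosomes hold 10 of the 77 tested subunits, of which 9 were below 0. The remaining 67 subunits lie elsewhere, and with limma and the replicate block 0 of them were called, against 10 lower and 3 higher at p under 0.05 before adjustment. These are 14.9% and 4.48% of the 67, where 14.3% and 15.8% of the other genes elsewhere reached that level. In replicates 2 and 3 alone 8 of the 18 lower subunits lie on chromosomes 10 and 19 and 10 lie elsewhere. The former are 80% of the 10, against 54.3% of the other genes of these chromosomes, and the latter 14.9% of the 67, against 14.0% of the other genes elsewhere. The other genes of the same chromosomes moved with the subunits. Over 577 other tested genes of chromosome 10 the median log2 fold change was −0.35, and 23.2% of them were lower with the replicate block. Over 424 other genes of chromosome 19 the median was −0.42, and 30.0% were lower. On chromosomes 10 and 19 together 261 of 1001 other genes, or 26.1%, were lower with the block, against 419 of 10716 genes elsewhere, or 3.91%. The shift was present in each pair, at −0.28, −0.41 and −0.39 on chromosome 10 and −0.34, −0.47 and −0.43 on chromosome 19 for replicates 1, 2 and 3.

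After these, chromosome 16 had the lowest median, −0.21 over 362 other genes and −0.174, −0.275 and −0.248 in the pairs. Of these genes 11.3% were lower with the block, and its 3 subunits, Atp5o, Atp5j and Ndufb4, were below 0. Chromosome 5 shifted the other way, with a median of 0.28 over 750 other genes and of 0.36, 0.21 and 0.24 in the pairs. Its 3 subunits were Cox6a1, Atp5j2 and Atp5k, with log2 fold changes of 0.37, 0.36 and 0.20, although Atp5k was at −0.07 in replicates 2 and 3 alone. Leaving out any library, rescaling to TPM, quantile normalization and upper quartile scaling kept the medians of chromosomes 10 and 19 below 0 and that of chromosome 5 above 0. Across the 77 subunits the log2 fold change was correlated with the median of the other genes of the chromosome by r = 0.717 and Spearman's rho = 0.689, against r = 0.287 across 11717 other genes. These points share libraries and chromosomes, so the correlation is a description. The SD of the subunits' log2 fold changes was 0.27 and became 0.19 when the chromosome median was subtracted from each. That of the other tested genes was 0.53 and became 0.51. The values of r for subunits and other genes were thus taken over unlike spreads, and their difference was not tested. The chromosomes were singled out after the values were seen.

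**Figure D4:**
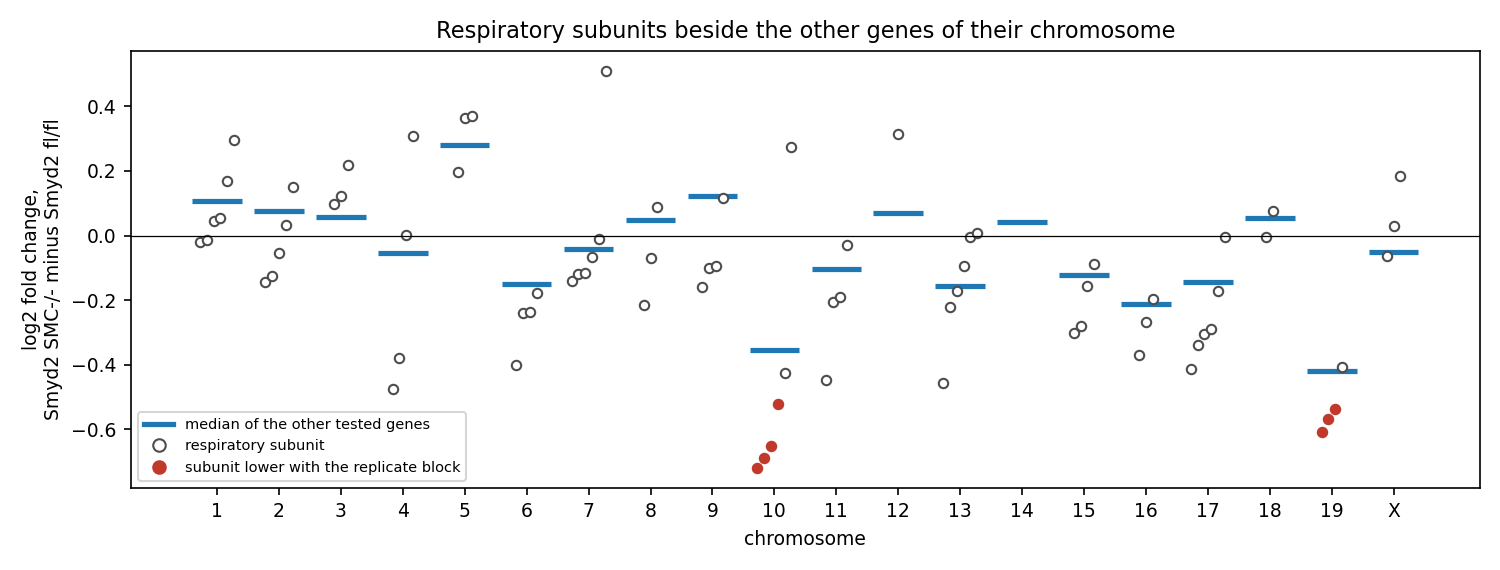
Log2 fold change (Smyd2 SMC-/- minus Smyd2 fl/fl) of each tested subunit by chromosome, as circles, beside the median of the other tested genes of that chromosome, as a blue bar. The subunits lower with the replicate block, in red, lie on chromosomes 10 and 19, whose other genes have medians of −0.35 and −0.42.

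Subtracting the chromosome median left Ndufa12 at −0.37, Ndufs7 at −0.34, Atp5d at −0.30, Ndufv1 at −0.19, Atp5b at −0.17, Ndufs8 at −0.15 and Ndufb8 at −0.12. Cox8a on chromosome 19 was left at 0.01. When the chromosome medians were removed in each library before the fit, an alternative chosen after the data were seen, limma with the replicate block called 0 subunits lower and 0 higher, against 2.28% and 3.34% of all tested genes. At p under 0.05 before adjustment that fit gave 8 lower and 1 higher, against 12.7% and 14.3% of all tested genes, which for 8 of 77 is no more than the background. Without the block 0 were called, and 2 were lower and 0 higher at that level, against 7.70% and 8.49% of all genes. In replicates 2 and 3 alone after the same removal 1 subunit was lower, Uqcrfs1, and 2 were higher, Cox6b2 and Ndufa4l2, against 8.44% and 11% of all genes. The median of the subunits was −0.07 after removal. Removal takes out any difference that the genes of a chromosome share, whatever its source. The source of the chromosome-wide differences was not tested, and chromosome copy number was not analysed here.

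Some members share their description with other entries of the table, and their own values are uncertain. Atp5a1, the alpha subunit of the head, was listed at only 1.77 to 6.28 FPKM, while an unnamed transcript described as ATP synthase subunit alpha, BGI_novel_G000881, was at 211, 216 and 186 FPKM in the controls and 197, 193 and 200 FPKM in the knockout. Its groups overlapped (log2 fold change −0.05, adjusted p = 0.857). Likewise Uqcrc1, a core protein of complex III, was at 0 in 4 of 6 libraries, while BGI_novel_G000441, described as cytochrome b-c1 complex subunit 1, was at 63.8, 55.0 and 49.5 FPKM and at 53.1, 51.1 and 49.1 FPKM. Its log2 fold change was −0.12 (adjusted p = 0.668). Gm3244, described as the Ndufb4 protein, was at 19.8, 32.6 and 27.9 FPKM in the controls and 11.9, 23.9 and 15.6 FPKM in the knockout. The groups overlapped, and its adjusted p was 0.277 without and 0.0375 with the replicate block. These entries are described after their values were seen.

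None of the 13 subunits encoded in mitochondrial DNA was found by symbol, and by description 2 entries were. The one described as NADH dehydrogenase subunit 2, BGI_novel_G000990, was at 1673, 943 and 933 FPKM in the controls and at 2111, 913 and 906 FPKM in the knockout. That described as the ND1 gene product, BGI_novel_G000989, was at 1160, 473 and 450 FPKM and at 1003, 371 and 336 FPKM. Replicate 1 was the highest library of each genotype in both entries, the groups overlapped, and the adjusted p was 0.940 and 0.793.

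Other genes of the pathway were counted by role, to be read against all tested genes, of which 1.21% were lower without the block, 5.72% with the replicate block and 11.2% at p under 0.05 before adjustment without the block. Of 15 complex I assembly factors tested, 1 was lower in limma without the block, Ndufaf2, at 28.4, 27.4 and 23.4 FPKM in the controls and 15.2, 16.3 and 15.3 FPKM in the knockout. Its groups did not overlap, and the log2 fold change was −0.72 (adjusted p = 0.0444, with the replicate block 0.0261, range 0.00566 to 0.207). It lies on chromosome 13. Subtracting the chromosome median left it at −0.56, and after removal with the replicate block it did not pass (adjusted p = 0.0651). For the assembly factors of complexes II, III and IV and the assembly and regulatory factors of complex V, 4, 6, 22 and 5 genes were tested, and 0 were called in limma with or without the block. At p under 0.05 before adjustment without the block there were 0, 0, 1 and 1 lower and 0 higher.

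The 7 electron carriers and the 12 genes of coenzyme Q synthesis held 0 called genes in limma with or without the block, and 0 at p under 0.05 before adjustment without it. Cyc1, cytochrome c1 of complex III, was at 65.5, 57.1 and 49.4 FPKM in the controls and 50.2, 44.7 and 42.1 FPKM in the knockout, with a log2 fold change of −0.32 (adjusted p = 0.290). Cycs, cytochrome c, was at 31.6, 19.4 and 17.1 FPKM against 16.4, 17.0 and 13.1 FPKM, with a log2 fold change of −0.48 (adjusted p = 0.326). In each pair of libraries both genes were lower in the knockout, and Cyc1 overlapped between the groups.

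Of 16 biogenesis regulators tested, 0 were called without the block (3 lower and 0 higher at p under 0.05 before adjustment) and 2, or 12.5%, were lower with it, Twnk, the mitochondrial DNA helicase on chromosome 19, and Polrmt, the mitochondrial RNA polymerase on chromosome 10. Twnk was at 10.5, 8.0 and 7.94 FPKM in the controls and 7.48, 4.82 and 4.89 FPKM in the knockout (log2 fold change −0.56, adjusted p = 0.204, with the replicate block 0.0485, range 0.00692 to 0.750). Polrmt was at 18.5, 10.1 and 9.99 FPKM against 12.8, 6.02 and 7.12 FPKM (log2 fold change −0.53, adjusted p = 0.441, with the replicate block 0.0476, range 0.0136 to 0.833). Both were higher in replicate 1 of each genotype, and the groups of Polrmt overlapped. The transcription factor genes Nrf1, Gabpa and Tfam did not pass the test, with adjusted p of 0.836, 0.257 and 0.306. Nrf1 was at 12.4, 9.19 and 9.28 FPKM in the controls and 11.1, 8.56 and 9.11 FPKM in the knockout, Gabpa at 21.3, 17.2 and 18 against 15.4, 14.8 and 15.0 FPKM, and Tfam, on chromosome 10, at 8.50, 9.13 and 9.72 against 7.89, 7.63 and 6.15 FPKM. The coactivator gene Ppargc1a was at no more than 0.87 FPKM in any library and was not tested.

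In the TCA cycle 0 of 16 genes were called without the block (2 lower and 0 higher at p under 0.05 before adjustment) and 1, or 6.25%, with it, Cs, citrate synthase, on chromosome 10, close to the 5.72% of all genes. Cs was at 206, 205 and 197 FPKM in the controls and 152, 130 and 122 FPKM in the knockout, without overlap (log2 fold change −0.60, adjusted p = 0.0679, with the replicate block 0.0365, range 0.00424 to 0.370). Of 21 import genes 0 were called without the block (4 lower and 0 higher at p under 0.05 before adjustment) and 2, or 9.52%, were lower with it. Timm8a1 was at 27.0, 17.4 and 14.6 FPKM in the controls and 11.5, 10.3 and 9.34 FPKM in the knockout (log2 fold change −0.82, with the replicate block adjusted p = 0.0373, range 0.00746 to 0.357), and Timm13, on chromosome 10, at 20.3, 21.5 and 18.6 against 11.4, 13.6 and 11.1 FPKM (−0.70, 0.0258, range 0.00935 to 0.321). Both are small carriers of proteins between the mitochondrial membranes, and in both the groups did not overlap.

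The mitochondrial ribosome had 0 of 78 genes called without the block (18 lower and 0 higher at p under 0.05 before adjustment) and 8 lower with it, or 23.1% before adjustment and 10.3% with the block, against 11.2% and 5.72% of all tested genes, with a median log2 fold change of −0.27 (−0.16 after rescaling to TPM), against the subunits' −0.12. Mrps6 was at 381, 165 and 133 FPKM in the controls and 227, 47.9 and 52.4 FPKM in the knockout (log2 fold change −1.28, adjusted p = 0.348, with the replicate block 0.0320, range 0.000238 to 0.682), with replicate 1 far above the others in both genotypes. Mrpl21, on chromosome 19, was at 17.8, 25.7 and 22.7 FPKM against 13.0, 14.2 and 12.2 FPKM (log2 fold change −0.69, with the replicate block 0.0395, range 0.00227 to 0.50). In the cytosolic ribosome 2 of 81 genes were lower without the block, Rps26 and Rps2, with 52, or 64.2%, lower at p under 0.05 before adjustment, and 21, or 25.9%, with it, with a median of −0.47 (−0.35 after rescaling to TPM) and 78 of 81 genes below 0. Rps26, on chromosome 10, was at 2370, 2594 and 2361 FPKM in the controls and 1147, 1324 and 1183 FPKM in the knockout (log2 fold change −1.0, adjusted p = 0.0151, range 0.00248 to 0.122), and Rps2 at 2506, 2106 and 1968 against 1374, 1218 and 1089 FPKM (−0.84, 0.0493, range 0.00492 to 0.217). After removal of the chromosome medians with the replicate block 19 cytosolic ribosome genes, or 23.5%, were lower, while 1 mitochondrial ribosome gene, or 1.28%, and 0 respiratory subunits were, against 2.28% of all tested genes. Whether the respiratory subunits and the ribosomal genes differ was not tested.

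The comparison rests on 3 libraries of each genotype, and whether these are separate animals or cultures is not given. Calls depended on whether the replicate number was used as a block and on replicate 1. Bulk RNA levels do not give protein levels, complex assembly or respiration, none of which was analysed here. Both genotypes carry floxed alleles, and controls with Cre alone were not used here, so effects of Cre and of Smyd2 loss cannot be told apart. The chromosome-wide differences and the mixture of cells are further differences between libraries whose part was not tested. The labels give the same serum for all 6 libraries. The serum state at harvest is uncertain, and its part was not tested.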

How the data were processed

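The FPKM values deposited by the authors were used as they are; RSEM had produced them from HISAT and Bowtie2 alignments of reads cleaned by SOAPnuke. Tool versions and the genome build are not given in the sources used here. Values were taken as log2(FPKM + 1), and the 12565 genes that reached 0.5 FPKM on average were compared by genotype with limma 3.58.1 (trend and robust, two-sided) in R 4.3.3, with Benjamini-Hochberg adjustment over all of them. Changes of weakly expressed genes appear smaller than they are on this scale. Steps of low FPKM values gave approximate depths of 16700000 to 20500000 fragments (70.8% to 74.5% of low values within 0.15 of a whole fragment, 30.0% by chance), so that 1 fragment on a transcript of 758 bases is 0.0644 to 0.0790 FPKM. Chromosomes were taken from RefSeq for GRCm38.p6 by gene number. They were used by name only, except for the promoters, whose coordinates are those of RefSeq.

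Replicate numbers come from the sample labels. Deviations from the group mean were correlated between libraries of the same number (r = 0.61, 0.46 and 0.53 for replicates 1, 2 and 3), so blocked values are given where they change a call. Replicates 2 and 3 were as much alike across numbers (r = 0.46 and 0.44), so the values set replicate 1 apart and do not tell 2 from 3. Alternatives were a pseudocount of 0.1, no filter or a minimum of 5 FPKM, the replicate block, a block for replicate 1, replicates 2 and 3 alone, each library left out, TPM, quantile and upper quartile scaling. Removal of chromosome medians (from other genes of chromosomes with at least 100) and TPM with the replicate block were chosen after seeing the data, as were the motifs and the parts of complexes I and V. The members and lists were chosen with earlier results of these data known. Named genes are, per complex, the most abundant and both extremes of log2 fold change with all libraries (leaving out a library changes several of these). Members past an adjusted p of 0.05 with the replicate block, paralog sets and set genes of each pathway list are also named. Atp5o is named for its call in replicates 2 and 3 alone. Ndufa5, Ndufa9, Ndufb10, Ndufv2 and Cox6c were lower in replicates 2 and 3 alone (limma adjusted p 0.0223 to 0.0411) and are not described singly. Calculations outside R used Python 3.11.15, pandas 2.3.3 and scipy 1.17.1. In a first simulation few of the changes put in were found, so their size was raised and the spread was taken from the fit's moderated variances, and the simulation does not show that small changes would be found.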

Additional observations from a re-analysis of the deposited data

How the results depend on the processing

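Leaving out each library in turn gave 0 to 2 respiratory subunits lower at an adjusted p under 0.05 and 0 to 0 higher, and among all genes 16 to 313 lower and 16 to 373 higher. Without Smyd2 SMC-/- replicate 1 the 2 lower were Ndufa12 and Ndufv1. The replicate block gave 7 subunits lower, with 719 genes lower and 593 higher in all, and the block for replicate 1 gave 8, with 1398 and 1152. Replicates 2 and 3 alone gave 18 subunits lower and 1 higher, with 2156 and 1494 genes. Upper quartile scaling gave 1 subunit lower. A minimum of 5 FPKM gave 82 genes lower and 77 higher, and rescaling to TPM 99 and 247.

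The following were chosen after seeing the data. Rescaling to TPM with the replicate block gave 5 subunits lower and 1 higher, with 475 genes lower and 1014 higher. Removal of chromosome medians gave 84 genes lower and 116 higher, and with the replicate block 287 lower and 420 higher. In replicates 2 and 3 alone it gave 1 subunit lower and 2 higher, with 1061 and 1380 genes.

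Smyd2 passed the test in 6 of 18 alternatives, with a log2 fold change of −1.48 with either block, −1.35 in replicates 2 and 3 alone, −1.77 by TPM with the replicate block, and after removal −1.60 with the replicate block and −1.42 in replicates 2 and 3 alone. It did not pass in the others, those leaving out a library among them. Ndufa4l2 was at −0.11 without Smyd2 SMC-/- replicate 2, against 0.74 without Smyd2 SMC-/- replicate 1. Atp5k was at −0.066 in replicates 2 and 3 alone, −0.074 after removal with or without the replicate block and −0.28 after removal in replicates 2 and 3 alone. After removal Cox8a was at 0.0054 and Tfam at 0.058, both with or without the replicate block. Gabpa was at 0.021 after removal in replicates 2 and 3 alone, against −0.23 in those replicates without removal.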
